A study of Gallus gallus with 60 samples.

Results

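The miR-200 and miR-429 family was followed by small RNA sequencing in Tibetan chickens. Its members were the miRNAs named miR-200, miR-429 or miR-141, with any letter or arm, in both deposited tables. This rule gave gga-miR-200a-3p, gga-miR-200a-5p, gga-miR-200b-3p, gga-miR-200b-5p, gga-miR-429-3p and gga-miR-429-5p, 6 of the 890 miRNAs listed for whole embryos and pectoral muscle and the same 6 of the 707 listed for the other tissues (1049 different miRNAs over both tables). The prefix gga marks chicken and is left out from here on. A miRNA is cut from a hairpin precursor, and 3p and 5p name the hairpin arm it comes from, so the 6 members stand for 3 hairpins. No miR-141 was listed, and 2 entries of gga-miR-1416, which begin with the same letters, were not counted. In the RefSeq gene table of the GRCg7b assembly all 3 hairpins were matched, lay on 1 chromosome with no other gene wholly between them, and the hairpin gga-mir-200a carried the symbol MIR141.

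In mammals, miRNAs of this family are abundant in epithelial cells and scarce in mesenchymal cells such as muscle and fibroblasts. They lower the transcription factors ZEB1 and ZEB2, which repress E-cadherin and other genes of epithelial junctions, and ZEB1 in turn represses the family's own hairpins. There miR-200b and miR-429 share their seed, the short stretch that pairs with target mRNAs, while miR-200a shares its seed with miR-141.

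The study sampled 60 libraries, 3 in each of 20 groups, all from Tibetan chickens with no treatment named. Pectoral muscle was taken at embryonic days E9, E12, E15, E18 and E20, at D1 after hatching, then at D36, D100 and D300 (days) and at Y3, Y5, Y8 and Y12 (years). Liver, ovary, brain, spleen and kidney were taken at D300, and E5 and E7 were labelled pectoral muscle but are entire embryos in the study's methods, where the stage labelled Y3 is also given as an earlier year. Following the study, E9 and E12 form the period Pre_E (n = 6), E15 to D1 form Lat_E (n = 12) and D36 to Y12 form Bir_G (n = 21). The study drew these periods from a clustering of these same miRNA profiles, so p-values between periods are not independent of how the periods were set. Samples are written as group and replicate number, as in E12-2, and since the sources name triplicates without tying each to a separate bird, p-values measure the spread between these samples only.

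Values are RPM, reads scaled to the total of each library. In the 56 libraries where a fixed step could be read, the deposited values were whole multiples of it, which gave totals of 9347754 to 13060558 reads. The other 4 libraries were not checked for this. A value of 3 reads, taken as the lower limit of detection, was worth 0.230 to 0.321 RPM. Defining miRNAs of the labelled tissues were high in their own tissue, except in kidney. The 7 muscle miRNAs summed to 393514 to 413315 RPM in D300 muscle and to 136 to 3810 RPM in the other tissues, miR-122-5p reached 6374 to 7494 RPM in liver, and the summed lists of ovary, brain and spleen were likewise highest in their own tissue. The kidney and gut list, of which 4 of 5 names were listed, summed to only 22.3 to 47.3 RPM in kidney. This was below all other D300 tissues, among them liver (68.4 to 84.0 RPM), pectoral muscle (77.6 to 162 RPM) and ovary (439 to 820 RPM). No miRNA of that list stood high in kidney. In bulk tissue, fewer cells of a type and less RNA per cell cannot be told apart.

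In whole embryos the family was abundant and led by miR-200b-3p. This member had 571, 417 and 614 RPM in the E5 embryos and 806, 702 and 618 RPM in the E7 embryos. In pectoral muscle it had 593, 448 and 613 RPM at E9, and then 101, 339 and 25.2 RPM at E12. The E12 samples all lay below the E9 samples, and E12-2 was well above the other E12 samples. It had 111, 108 and 62.9 RPM at E15, 8.67, 85.5 and 5.31 RPM at E18, 10.02, 11.3 and 7.43 RPM at E20, and 37.5, 8.25 and 3.95 RPM at D1. E18-2 and D1-1 each stood above the other samples of their stage. From D36 to Y12 its lowest, median and highest values were 0.658, 2.83 and 14.4 RPM, and none of these samples reached the lowest value of E15.

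The same course was seen for miR-429-3p, which comes from a neighbouring hairpin and, in mammals, has the same seed as miR-200b. It had 311, 223 and 289 RPM at E5, 374, 369 and 304 RPM at E7, and 272, 299.6 and 363 RPM at E9. It had 65.9, 258 and 18.6 RPM at E12, 55.1, 69.1 and 45.8 RPM at E15, and 3.33, 53.3 and 2.55 RPM at E18. Again E12-2 and E18-2 were far above the samples beside them, and the E12 samples all lay below those of E9. At E20 it had 3.85, 6.41 and 3.62 RPM, at D1 21.2, 2.55 and 0.658 RPM, and from D36 to Y12 its lowest, median and highest values were 0.176, 1.31 and 5.85 RPM. One of the 21 Bir_G samples was under 3 reads.

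The member with the other seed in mammals, miR-200a-3p, started lower and ended higher. It had 232, 225 and 265 RPM at E5, 288, 285 and 200.5 RPM at E7, 206, 228 and 272 RPM at E9, and 29.9, 102 and 14.47 RPM at E12. It had 39.1, 35.3 and 25.5 RPM at E15, 8.38, 23.2 and 3.88 RPM at E18, 5.47, 6.61 and 7.33 RPM at E20, and 22.1, 4.85 and 2.54 RPM at D1. The samples high for the other members, E12-2, E18-2 and D1-1, were high here too. From D36 to Y12 its lowest, median and highest values were 1.32, 4.63 and 23.6 RPM, so Bir_G samples overlapped E12, E18, E20 and D1. Its means at Y3 (13.5 RPM), D300 (9.73 RPM) and Y5 (8.15 RPM) were above that of E20 (6.47 RPM). Those at D100 (4.57 RPM), D36 (3.87 RPM), Y8 (2.72 RPM) and Y12 (2.47 RPM) were below it.

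**Figure D1:**
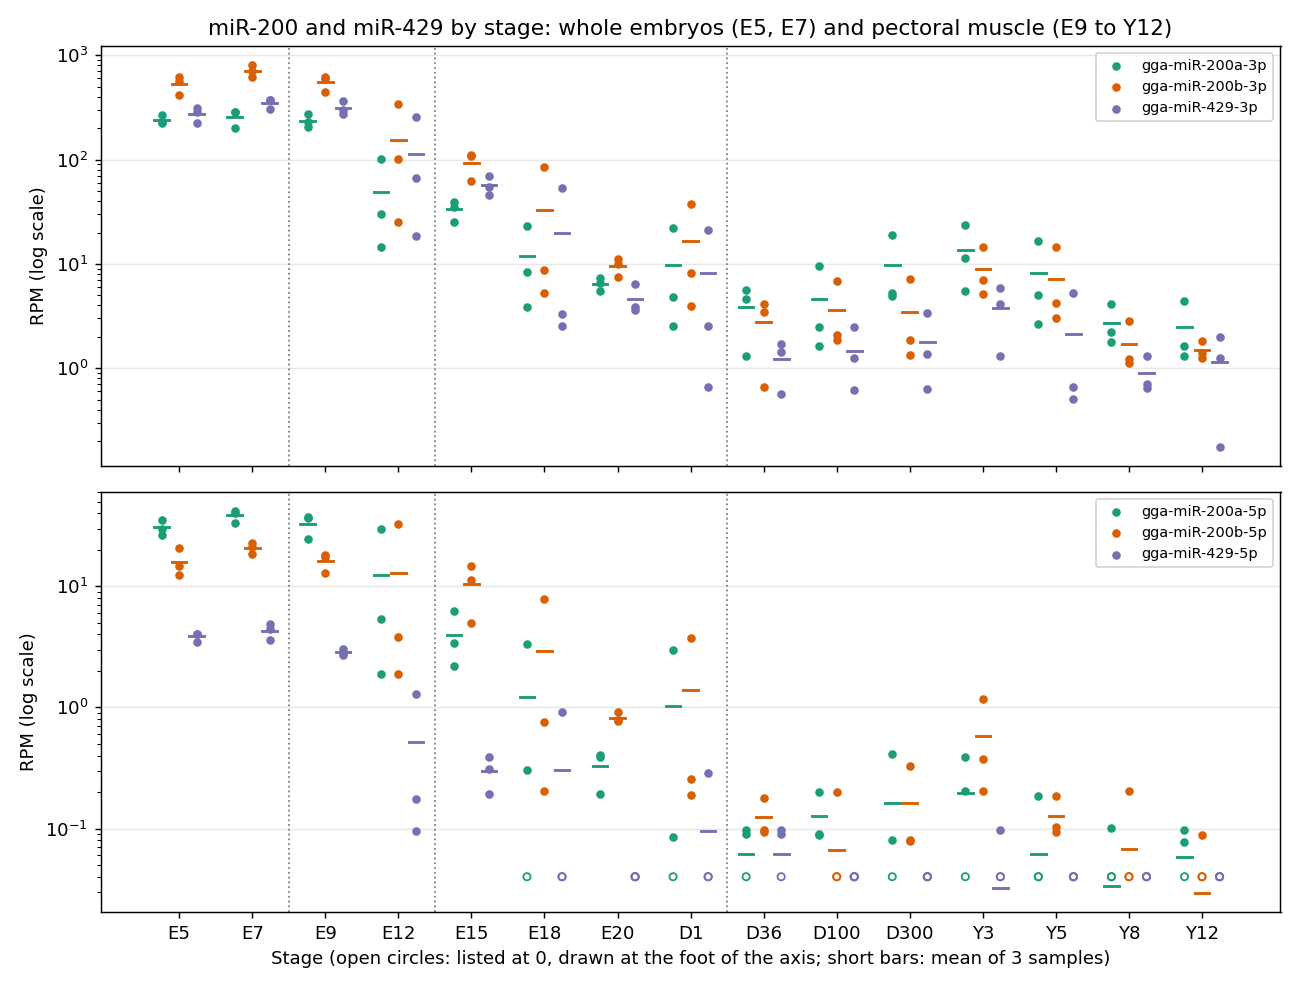
RPM of the 3p arms (first panel) and the 5p arms (second panel) in each sample of whole embryo (E5, E7) and pectoral muscle (E9 to Y12), on a logarithmic axis, with short bars at the mean of 3 samples, open circles for members listed at 0 and dotted lines between periods. The 3p arms had 200.5 RPM or more in all samples up to E9 and 23.6 RPM or less in all samples from D36 on, with E12-2, E18-2 and D1-1 above the other samples of their stages.

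The 5p arms were lower than their 3p partners in all 60 samples. At E9, miR-200a-5p had 24.6, 36.4 and 37.6 RPM, miR-200b-5p had 18.0, 17.5 and 12.9 RPM, and miR-429-5p had 3.05, 2.71 and 2.83 RPM. At E12 the values were 5.38, 29.7 and 1.90 RPM for miR-200a-5p, 3.82, 32.8 and 1.90 RPM for miR-200b-5p, and 0.174, 1.28 and 0.0952 RPM for miR-429-5p. E12-2 again stood highest, so that only miR-429-5p of these arms lay below all E9 samples. In Bir_G, miR-200a-5p was under 3 reads in 19 of 21 samples, miR-200b-5p in 18 and miR-429-5p in 21, of which 18 were listed at 0. These arms could hardly be detected in muscle from D36 on at this depth.

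Between E9 and E12, 4 members had no overlap and were lower at E12, against 16.8% of the 704 miRNAs listed in those samples. These were the 3p arms and miR-429-5p. The E9 samples also differed in muscle markers. The muscle list summed to 8901 to 14299 RPM at E9, against 34195 to 78549 RPM at E12, and this list did not overlap, while the brain list of 4 miRNAs overlapped, with 18130 to 22939 RPM at E9, against 13973 to 22877 RPM at E12. A list of 3 mesenchymal miRNAs did not overlap either, with 64985 to 82094 RPM at E9, against 38054 to 61667 RPM at E12. A list of 11 epithelial miRNAs, named below, overlapped, with 33792 to 50980 RPM at E9, against 2120 to 61994 RPM at E12. The part of these differences in the family's level was not tested.

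The first period comparison asks how the family changed between late and early embryonic muscle. All 6 members fell in Lat_E against Pre_E, where 18.3% of the 760 tested miRNAs were called lower. A call needed an unadjusted limma p no higher than 0.05 and a difference of at least 1 in mean log2(RPM + 1), in either direction. Adjusted p-values follow Benjamini and Hochberg over the same miRNAs. The change on this scale understates that of low members.

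The mean of miR-429-3p was 22.3 ± 25.8 RPM in Lat_E (SD, n = 12), against 213 ± 138 RPM in Pre_E (SD, n = 6), a difference of -3.73 on the log2 scale (SE 0.896, limma adjusted p = 0.00349). For miR-200b-3p the means were 38.3 ± 42.0 RPM in Lat_E and 353 ± 247 RPM in Pre_E, a change of -3.44 (SE 0.840, adjusted p = 0.00389). For miR-200a-3p they were 15.4 ± 13.03 RPM in Lat_E and 142 ± 108 RPM in Pre_E, a change of -2.96 (SE 0.672, adjusted p = 0.00240). The periods overlapped for all 3 arms, through E12-1 and E12-3 on the side of Pre_E and the E15 samples, E18-2 and D1-1 on that of Lat_E. The 5p arms changed by -3.01 (miR-200a-5p), -1.87 (miR-200b-5p) and -1.03 (miR-429-5p), with adjusted p of 8.57e-04, 0.0344 and 0.00529.

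The median change over the 6 members was -2.98, against -0.21 over all tested miRNAs. Over the miRNAs above 1 RPM in every compared sample, which leaves out the many rare ones, the median of the samples shifted by -0.93 on the log2 scale. Relative to this shift, called centring from here on, the changes were -2.80 for miR-429-3p, -2.51 for miR-200b-3p and -2.03 for miR-200a-3p, while miR-200b-5p (-0.94) and miR-429-5p (-0.10) no longer reached the fold used for a call. Over all miRNAs, 16 were called higher and 139 lower, and after centring 98 and 30. With E9 left out of Pre_E, an alternative chosen after seeing the data, 2 of the 6 calls held, for miR-429-3p at -2.66 and miR-200a-5p at -2.01 (105 of 704 miRNAs called lower). The log2 fold change of miR-200b-3p was then -2.19 (unadjusted p = 0.0598) and that of miR-200a-3p -1.62 (unadjusted p = 0.0539). Without replicate 2 of each stage, 4 of the 6 calls held, and miR-200b-5p (-1.52) and miR-429-5p (-0.95) were lost. With stage means in place of samples the same 5p arms were lost, at unadjusted p of 0.0799 and 0.0540 by limma. The call of miR-200b-5p was also lost by edgeR (-1.57), by DESeq2 (-1.56) and when rescaled without miR-133a-3p (-1.64), where its p exceeded the threshold. Rescaled, here and below, means divided by each library's summed listed miRNAs less miR-133a-3p, in place of the library total. Fits by edgeR and DESeq2, here and below, left out E7-2, E9-3, D100-3 and Y8-2, which had no recovered reads.

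The second comparison sets muscle from D36 on against Lat_E, which runs from E15 to D1 and so begins before hatching. By E20 the summed 3p arms had 18.4 to 24.3 RPM, within the 2.54 to 43.9 RPM of Bir_G. In Bir_G against Lat_E, 4 members fell and none was called higher, where 13.95% of the 731 tested miRNAs were called lower. The mean of miR-200b-3p was 4.16 ± 3.96 RPM in Bir_G (SD, n = 21), against 38.3 RPM in Lat_E, a difference of -2.35 on the log2 scale (SE 0.448, limma adjusted p = 3.27e-05). For miR-429-3p the mean was 1.78 ± 1.59 RPM in Bir_G, against 22.3 RPM in Lat_E, a change of -2.17 (SE 0.457, adjusted p = 1.20e-04). For miR-200a-3p it was 6.43 ± 6.24 RPM in Bir_G, against 15.4 RPM in Lat_E, a change of -1.07 (SE 0.391, adjusted p = 0.0198). The smallest of these changes, that of miR-200a-3p, was -0.83 and no longer called without replicate 2 of each stage, nor was it called with stage means in place of samples (limma unadjusted p = 0.0589).

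The fourth member called was miR-200b-5p, with a change of -1.45 (adjusted p = 9.98e-05), while the changes of miR-200a-5p (-0.91) and miR-429-5p (-0.18) were under the fold used for a call. The median over the members was -1.26, against -0.03 over all tested miRNAs. The centring shift was 0.22 here, and relative to it the 3p changes were -2.57 for miR-200b-3p, -2.40 for miR-429-3p and -1.29 for miR-200a-3p. Over all miRNAs, 101 were called higher and 102 lower. The counts were 98 and 176 when rescaled to the summed listed miRNAs without miR-133a-3p, the miRNA with the highest mean level in these muscle samples. With miR-133a-3p counted, the listed miRNAs summed to 294507 to 541736 RPM in Lat_E and to 657870 to 875328 RPM in Bir_G. Leaving out miR-133a-3p and changing the total were not told apart.

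Over the whole span, all 6 members fell in Bir_G against Pre_E, where 24.8% of the 785 tested miRNAs were called lower. The log2 fold changes of the 3p arms were -5.91 for miR-429-3p (SE 0.443, limma adjusted p = 2.84e-12), -5.79 for miR-200b-3p (SE 0.523, adjusted p = 1.33e-10) and -4.02 for miR-200a-3p (SE 0.541, adjusted p = 2.22e-07). For miR-200b-3p and miR-429-3p the lowest Pre_E sample, E12-3, was above all 21 Bir_G samples. For miR-200a-3p it lay within their range. The 5p arms changed by -3.92 (miR-200a-5p), -3.33 (miR-200b-5p) and -1.21 (miR-429-5p), and the last of these was -0.50 and not called with E9 left out (183 of 724 miRNAs called lower) and -0.74 after centring.

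The members' median was -3.97, against -0.19 over all tested miRNAs. The centring shift was -0.48, and relative to it the 3p changes were -5.43 for miR-429-3p, -5.31 for miR-200b-3p and -3.55 for miR-200a-3p. Over all miRNAs 90 were called higher and 195 lower, and after centring 125 and 143. All 3 period comparisons share samples with each other.

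Other marker lists changed with the periods. In Bir_G against Lat_E all 4 listed miRNAs of blood and spleen were called higher (median 5.07), and their summed level had a median of 4269 RPM in Bir_G (2076 to 9661 RPM), against 98.2 RPM in Lat_E (63.2 to 301 RPM), with no overlap. The muscle list had 5 of 7 called higher and 2 lower, with 225098 to 413315 RPM in Bir_G, against 74038 to 231773 RPM in Lat_E. Of the kidney and gut list 1 of 4 was called higher and 2 lower (median -1.62). Over all 731 miRNAs 101 were called higher, and the part of these cell types in the family's fall between Lat_E and Bir_G was not tested.

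**Figure D2:**
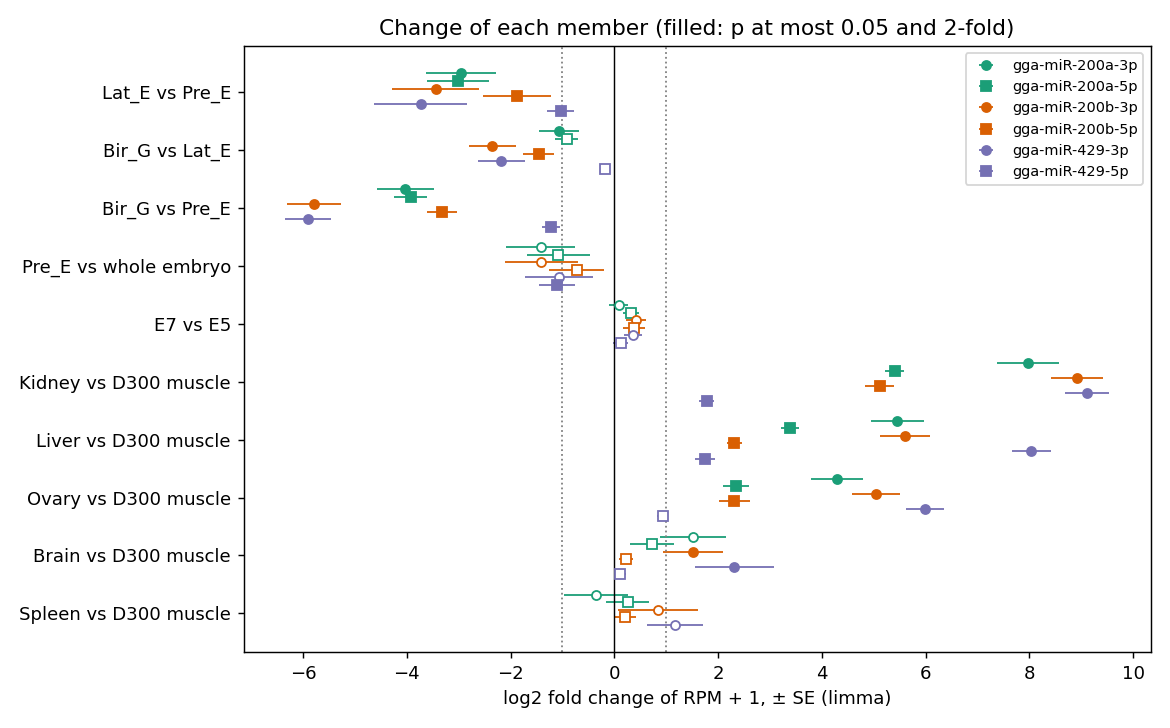
Log2 fold change of RPM + 1 with its SE (limma) of each member in the comparisons of periods, of whole embryos and of each tissue with D300 pectoral muscle, with circles for 3p arms, squares for 5p arms, filled symbols for called members and dotted lines at 1 and -1. The changes of the 3p arms in Bir_G against Pre_E lay between -5.91 and -4.02, and those in kidney against D300 muscle between 7.97 and 9.12.

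As a curve over the 13 muscle stages (39 samples), all 6 members passed the time course test and fell. Among the 816 miRNAs tested, 26.6% passed and 19.7% passed and fell. The test was a polynomial of degree 2 in the order of stages, with an adjusted p of at most 0.05 and an R-squared of at least 0.6. R-squared was 0.810 for miR-429-3p, 0.794 for miR-200a-5p, 0.784 for miR-200b-3p, 0.750 for miR-200b-5p, 0.648 for miR-429-5p and 0.640 for miR-200a-3p. The fitted change between the last and the first stage was -6.26 for miR-200b-3p and -6.23 for miR-429-3p on the log2 scale, and -4.09 for miR-200a-3p. It was -3.70 for miR-200a-5p, -3.70 for miR-200b-5p and -1.10 for miR-429-5p. With the logarithm of days in place of stage order, 3 members passed (172 of 816 miRNAs passed), namely miR-200b-3p, miR-200b-5p and miR-429-3p. Without replicate 2 of each stage 4 passed (230 of 779 miRNAs passed), with miR-200a-3p at an R-squared of 0.514 and miR-429-5p at 0.562. After centring, miR-429-5p did not pass, at an R-squared of 0.273. Of the 816 miRNAs, 162 then passed and 69 passed and fell. At a threshold of 0.7 for R-squared, miR-200a-3p and miR-429-5p did not pass (137 of 816 miRNAs passed).

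Samples of a stage differed in the family as a whole. E12-2, E18-2 and D1-1 were the highest samples of their stages for the 3p arms, and over the 45 embryo and muscle samples the deviations of the 3p arms from their stage means correlated at 0.886 to 0.950, as a description over samples that share libraries. The same samples were highest for miR-205a, a miRNA of stratified epithelium that lowers the ZEB factors too. It had 4374, 56768 and 1371 RPM in E12-1, E12-2 and E12-3, 434, 14742 and 421 RPM in the E18 samples, and 4930, 298 and 94.99 RPM in the D1 samples. E12-2, E18-2 and D1-1 stood an order of magnitude above their neighbours. One sample was also highest for both the summed 3p arms and miR-205a at E15, E20, D100, Y5, Y8 and Y12. At E5, E7, E9, D36, D300 and Y3 the highest samples differed. Y3-1 had the highest summed 3p arms of its stage (43.9 RPM) but the lowest miR-205a (112 RPM). For miR-203a, a miRNA of the epidermis, E12-2 had 581 RPM, against 25.7 RPM in E12-1 and 5.90 RPM in E12-3, and E18-2 had 376.96 RPM, against 16.1 and 14.3 RPM in the other E18 samples. The epithelial and endocrine miR-375 did not set E12-2 apart, with 17.6, 17.9 and 14.3 RPM in the E12 samples. E18-2 was highest for miR-375 with 25.8 RPM, against 3.14 and 1.73 RPM in the other E18 samples. For miR-183, also of the epithelium list named below, E12-2 was lowest, with 92.2, 43.4 and 67.4 RPM in the E12 samples. E18-2 was highest for miR-183, with 28.8, 59.8 and 35.8 RPM in the E18 samples. For miR-31-5p of that list, E12-2 was highest of the E12 samples, with 66.5 RPM against 36.6 RPM in E12-1. D1-1 was the highest D1 sample for each of these miRNAs. The D1 samples had 11.3, 3.32 and 0 RPM of miR-203a and 7.97, 1.53 and 0.376 RPM of miR-375. They had 63.0, 17.3 and 19.7 RPM of miR-183 and 42.8, 4.42 and 1.88 RPM of miR-31-5p.

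The whole epithelium list, fixed for mammalian epithelia, had 11 of its 14 names in the table. It held miR-205a, miR-205b, miR-203a, miR-31-5p, miR-183, miR-375, miR-34b-5p, miR-34c-5p and the miR-449 miRNAs, and no member of the family. Its summed level ran from 166 to 17733 RPM in Lat_E, from 2120 to 61994 RPM in Pre_E and from 16353 to 32273 RPM in whole embryos, while in Bir_G it ran from 39.8 to 550 RPM with a median of 170 RPM. E9 alone had 33792 to 50980 RPM and E20 298 to 530 RPM. The sum was mostly miR-205a in the highest samples, 56768 of 61994 RPM in E12-2 and 14742 of 15595 RPM in E18-2. Among the Bir_G stages it was lowest at D36 and D100 (medians of 95.4 and 66.7 RPM), while the family was lowest at Y8 and Y12. The part of epithelial RNA in the family's change was not tested.

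Within the list, 5 of 11 miRNAs were called lower and none higher in Lat_E against Pre_E (median -1.39), with miR-205b at -3.99 lowest and miR-205a at -3.71. In Bir_G against Lat_E 6 of 11 were called lower (median -1.10) and in Bir_G against Pre_E again 6 of 11 (median -3.06), with miR-205b lowest at -7.27 and -11.25. The backgrounds are those given above. The list of mesenchymal miRNAs, of which miR-199-3p, miR-199-5p and miR-214 were listed, also had members called lower. In Lat_E against Pre_E its miR-199-3p (-1.42) and miR-199-5p (-1.51) were called lower, and miR-214 changed by -0.12. In Bir_G against Lat_E 1 of the 3 was called lower, miR-214 at -4.65, and in Bir_G against Pre_E all 3 were (median -1.92).

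**Figure D3:**
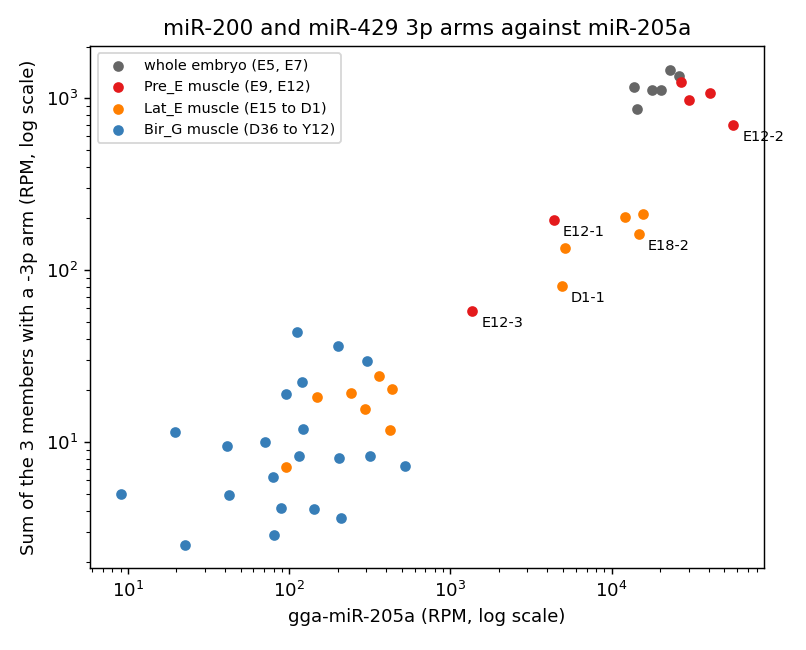
Summed RPM of the 3 members' 3p arms against RPM of miR-205a in each of the 45 embryo and pectoral muscle samples, both axes logarithmic, coloured by period. E12-2, E18-2 and D1-1 were higher in both measures than the other samples of their stages, with miR-205a at 56768, 14742 and 4930 RPM. At E5, E7, E9, D36, D300 and Y3 the sample highest in one measure was not the highest in the other.

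Early embryonic muscle was also compared with whole embryos. In Pre_E against whole embryo 1 member, miR-429-5p, was called lower, at -1.10 (limma adjusted p = 0.0355), where 10.04% of the 817 tested miRNAs were called lower. This call was lost by edgeR (-1.23, unadjusted p = 0.118) and by DESeq2 (-1.29, unadjusted p = 0.0805), both fitted without E7-2 and E9-3. The change of method and that of samples were not told apart. The 3p means were 353 RPM in Pre_E and 621 ± 130 RPM in whole embryo (SD, n = 6) for miR-200b-3p, 213 and 311 ± 56.0 RPM for miR-429-3p, and 142 and 249 ± 35.6 RPM for miR-200a-3p. Their log2 fold changes were -1.41 (SE 0.701, adjusted p = 0.200), -1.07 (SE 0.648, adjusted p = 0.303) and -1.42 (SE 0.660, adjusted p = 0.171). The E9 samples lay within the range of the whole embryos, and the E12 samples below it except E12-2 for miR-429-3p. With E9 left out, which was chosen after seeing the data, 5 members were called lower, where 113 of 798 miRNAs were, among them miR-200a-3p at -2.76, miR-200b-3p at -2.66 and miR-429-3p at -2.14.

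In Pre_E against whole embryo the calls among the listed epithelial and mesenchymal miRNAs differed in direction. Of the epithelium list 5 of 11 were called lower and none higher (median -1.50), with miR-449c-5p lowest at -3.52. Of the mesenchymal list 2 of 3 were called higher and none lower (median 1.20), where 38 of the 817 tested miRNAs were called higher. The summed epithelium list overlapped, with 2120 to 61994 RPM in Pre_E, against 16353 to 32273 RPM in whole embryos. Its miR-205a had 26844 to 40713 RPM at E9, above all whole embryos (13815 to 26235 RPM), and 1371 to 56768 RPM at E12.

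Between E7 and E5, no member was called by limma, edgeR or DESeq2, none had an unadjusted limma p under 0.05, and 8.20% of the 768 tested miRNAs were called in either direction by limma. The edgeR and DESeq2 fits left out E7-2. The limma log2 fold changes of the members ran from 0.09 to 0.42 (adjusted p 0.253 to 0.828). All 6 turned negative when the values were rescaled to the summed listed miRNAs without miR-133a-3p. The listed miRNAs summed to 374615 to 437820 RPM at E5 and to 567952 to 630236 RPM at E7. The whole muscle list, which holds miR-133a-3p, had at most 4453 RPM in these embryos. Over all miRNAs 46 were called higher and 17 lower, 31 and 34 after centring (a shift of 0.29), and 23 and 59 after that rescaling.

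The other tissues of D300 birds gave the family's highest levels, in kidney. There miR-200a-3p had 2984, 3137 and 1234 RPM, miR-200b-3p had 1626, 2495 and 1555 RPM, and miR-429-3p had 1157, 2134 and 1163 RPM. All kidney samples were above every other sample of the series for all 3 members. The listed miRNAs of Kidney-1 summed to 410664 RPM, against 788209 and 847464 RPM in the other kidney samples, and the 6 members made up 0.477 to 1.42% of the listed miRNA reads of kidney, against 0.000341 to 0.00608% in Bir_G muscle. The kidney's 5p arms had 48.3, 54.0 and 41.5 RPM for miR-200a-5p, 25.1, 51.3 and 46.0 RPM for miR-200b-5p, and 3.07, 1.97 and 2.36 RPM for miR-429-5p.

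Liver came next for miR-200a-3p and miR-429-3p. Its samples had 458, 442 and 308 RPM of miR-200a-3p, 202, 174 and 177 RPM of miR-200b-3p, and 750, 727 and 558 RPM of miR-429-3p. Ovary had 204, 195 and 137 RPM of miR-200a-3p, 127, 136 and 111 RPM of miR-200b-3p, and 173, 185 and 133 RPM of miR-429-3p. Liver was above ovary in every sample for each of these arms.

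Brain and spleen were low and uneven. Brain had 22.5, 13.2 and 50.6 RPM of miR-200a-3p, 9.30, 5.74 and 17.6 RPM of miR-200b-3p, and 6.46, 5.74 and 39.9 RPM of miR-429-3p, with Brain-3 highest for each. Spleen had 4.16, 4.15 and 12.3 RPM of miR-200a-3p, 4.77, 2.11 and 16.8 RPM of miR-200b-3p, and 3.99, 2.504 and 9.95 RPM of miR-429-3p, with Spleen-3 highest for each. D300 pectoral muscle had 19.0, 4.91 and 5.23 RPM of miR-200a-3p, 7.19, 1.85 and 1.35 RPM of miR-200b-3p, and 3.35, 1.37 and 0.634 RPM of miR-429-3p, and overlapped spleen for all 3 arms.

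**Figure D4:**
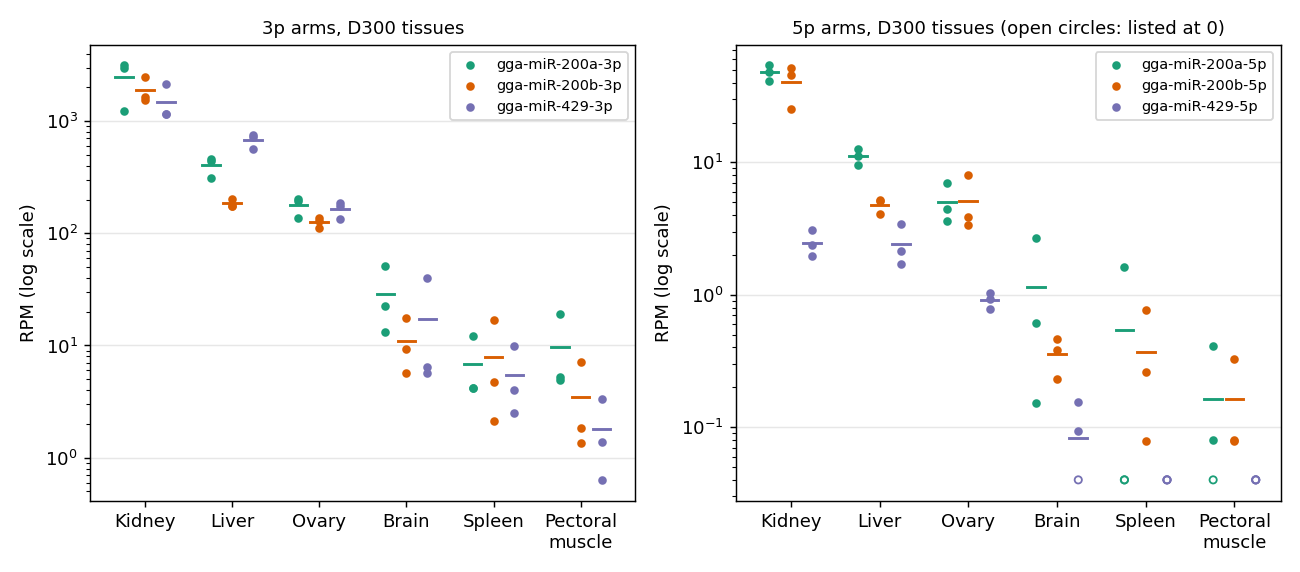
RPM of the 3p arms (first panel) and the 5p arms (second panel) in each sample of kidney, liver, ovary, brain, spleen and pectoral muscle at D300, on a logarithmic axis with short bars at the mean of 3 samples and open circles for members listed at 0. Kidney samples had 1157 to 3137 RPM of each 3p arm, above all other tissues, and spleen overlapped muscle.

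Each tissue was compared with the shared D300 muscle samples, which stand in another table. Both tables give reads scaled to each library's own total, with no normalisation across libraries. In kidney all 6 members were called higher than in D300 muscle, where 11.5% of the 419 tested miRNAs were called higher. The log2 fold changes were 9.12 for miR-429-3p (SE 0.424, limma adjusted p = 3.23e-05), 8.93 for miR-200b-3p (SE 0.501, adjusted p = 5.14e-05) and 7.97 for miR-200a-3p (SE 0.598, adjusted p = 1.72e-04). The kidney means were 832-fold, 546-fold and 252-fold those of muscle, and 1482-fold, 1182-fold and 483-fold when D300-1, the highest muscle sample, was left out of the muscle mean, as chosen after seeing the data. These log2 changes ran from 7.42 to 9.65 when any replicate number was left out. The 5p arms rose too, and miR-429-5p, listed at 0 in all D300 muscle samples, was at least 10.1-fold higher in kidney by the limit of 3 reads per library.

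In liver all 6 members were called higher than in D300 muscle (19.9% of 432 tested miRNAs called higher), with log2 fold changes of 8.04 for miR-429-3p, 5.604 for miR-200b-3p and 5.46 for miR-200a-3p. The liver means were 380-fold, 53.2-fold and 41.4-fold those of muscle, and 677-fold, 115-fold and 79.4-fold without D300-1. In ovary 5 members were called higher (21.8% of 435), with 5.99 for miR-429-3p, 5.04 for miR-200b-3p and 4.29 for miR-200a-3p, while miR-429-5p changed by 0.93. In brain 2 members were called higher (28.5% of 505), namely miR-429-3p at 2.31 (adjusted p = 0.0471) and miR-200b-3p at 1.52 (adjusted p = 0.0736), a share near the background. Without Brain-2 and D300-2 neither was called, and without Brain-3 and D300-3 the count was 1. In spleen none of the 5 members tested was called by limma, edgeR or DESeq2, none had an unadjusted limma p under 0.05, and 33.8% of 423 miRNAs were called in either direction.

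The median of the members' log2 fold changes against D300 muscle was 6.69 in kidney, 4.42 in liver, 3.32 in ovary, 1.12 in brain and 0.26 in spleen, against -0.16, 0.08, 0.08, 0.20 and 0.05 over all tested miRNAs. The centring shift, over miRNAs above 1 RPM in every compared sample, was -0.06 in kidney, 0.52 in liver, 0.62 in ovary, 0.68 in brain and 0.59 in spleen. After centring no member was called in brain, and the counts of all miRNAs called higher and lower were 56 and 78 in liver (86 and 51 before), 59 and 93 in ovary (95 and 44 before), 99 and 92 in brain (144 and 49 before) and 52 and 89 in spleen (92 and 51 before). Kidney had 48 and 84, against 42 and 122 when rescaled without miR-133a-3p, 86 and 85 by edgeR, and 73 and 74 by DESeq2.

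Within the tissue table, each tissue was set against the mean of the other 4. All 6 members were called higher in kidney, where only 3.44% of the 668 tested miRNAs were, with 5.67 for miR-200b-3p (SE 0.414), 5.24 for miR-200a-3p (SE 0.407) and 4.74 for miR-429-3p (SE 0.484). The 5p changes were 3.72, 3.85 and 1.08 for miR-200a-5p, miR-200b-5p and miR-429-5p. In liver 5 members were called higher (11.1% called higher), with 3.39 for miR-429-3p, 2.10 for miR-200a-3p and 1.52 for miR-200b-3p, and miR-200b-5p changed by 0.35. Without replicate 1, or without replicate 2, the liver count was 3, and miR-200a-5p lost its call by edgeR and DESeq2 too. In kidney miR-429-5p was 0.95 and not called without replicate 1.

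In ovary no member was called against the other 4 (13.5% of miRNAs called in either direction by limma), and none had an unadjusted limma p under 0.05, while edgeR and DESeq2 on the recovered reads each called 2, miR-200b-5p and miR-429-5p. Over all 668 miRNAs edgeR called 117 higher and 35 lower here, so its count of members stands against a larger background. Without replicate 3 limma called 2 other members, miR-200b-3p at 1.13 and miR-429-3p at 1.23. All 6 members were called lower in brain (8.98% called lower) and all 6 in spleen (11.8% called lower). In brain the call of miR-429-5p was lost by edgeR (unadjusted p = 0.987) and without replicate 2 (-0.94). The 3p changes in brain were -3.77 for miR-429-3p, -3.59 for miR-200b-3p and -2.82 for miR-200a-3p, and in spleen -5.20, -4.43 and -5.16. Over all miRNAs, 23 were called higher in kidney and 167 lower, and after centring (a shift of -0.92) 55 and 51. The splits were 56 and 34 in ovary (48 and 66 centred) and 142 and 60 in brain (116 and 80 centred).

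Tissues that neighbour each other in level were compared in pairs in the same fit. In kidney against liver 4 members were called higher, where 4.49% of miRNAs were, with 3.32 for miR-200b-3p (SE 0.524, limma adjusted p = 3.30e-04) and 2.51 for miR-200a-3p (SE 0.515, adjusted p = 0.00230). Here miR-429-3p changed by 1.08 (SE 0.612, adjusted p = 0.262) and miR-429-5p by 0.03, so neither arm of miR-429 was called. The kidney means were 10.3-fold, 6.09-fold and 2.19-fold those of liver for miR-200b-3p, miR-200a-3p and miR-429-3p. In kidney against ovary 5 members were called higher (3.74% of miRNAs called higher). Over all miRNAs, 133 were called higher and 30 lower in liver against kidney, and 126 and 25 in ovary against kidney. Among miRNAs of at least 10 RPM on average, the median change was 0.950 for liver against kidney and 0.945 for ovary against kidney. The members' changes in these pairs are not relative to this shift.

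In liver against ovary 3 members were called higher (10.9% called higher), namely miR-429-3p at 2.04 (adjusted p = 0.0216), miR-200a-3p at 1.17 (adjusted p = 0.111) and miR-200a-5p at 1.04 (adjusted p = 0.0951), so that 1 of the 3 also passed after adjustment. The change of miR-200b-3p was 0.56 (adjusted p = 0.523). In ovary against brain 5 members were called higher (9.73%), and in brain against spleen 1 was (23.1%), miR-200a-3p at 1.87 (adjusted p = 0.00987).

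Ordered over all 20 groups, the summed 3p arms averaged 5828 ± 1908 RPM in kidney, 1315 RPM at E7, 1265 ± 196 RPM in liver, 1098 RPM at E9, 1048 RPM at E5, 467 ± 75.0 RPM in ovary, 318 ± 337 RPM at E12 and 184 RPM at E15 (SD, n = 3). All later muscle groups, brain and spleen averaged 64.7 RPM or less, down to 5.12 RPM at Y12. Of the 19 pairs of neighbours in this order, 2 did not overlap, kidney over E7 and E5 over ovary. For the single members, 4 pairs did not overlap for miR-200a-3p, 4 for miR-200b-3p and 3 for miR-429-3p.

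The balance among members changed with the tissue. The ratio of miR-200a-3p to miR-200b-3p in RPM, computed where both had at least 3 reads, had a median of 0.406 in whole embryos (0.324 to 0.539), 0.395 in Pre_E (0.297 to 0.574), 0.587 in Lat_E (0.272 to 0.987) and 1.41 in Bir_G (0.783 to 3.88). The embryo and Pre_E samples, all below 0.6, did not overlap those of Bir_G. It was 1.26 in kidney, 2.26 in liver, 1.43 in ovary, 2.42 in brain and 0.873 in spleen, against 2.65 in D300 muscle. The median was thus above 1 in all D300 tissues but spleen. Kidney and spleen overlapped, and each had samples on both sides of 1. Kidney-3 had 1234 RPM of miR-200a-3p, against 1555 RPM of miR-200b-3p, and Spleen-2 had 4.15 RPM, against 2.11 RPM. These ratios are a description of each library and carry any difference in capture between the miRNAs.

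The ratio of miR-429-3p to miR-200b-3p set liver apart. It was 3.71 in liver (3.16 to 4.18), against 0.748 in kidney (0.712 to 0.855), 1.36 in ovary (1.21 to 1.36), 1.00 in brain (0.694 to 2.27) and 0.836 in spleen. Every liver sample was above every sample of the other tissues. In whole embryos the median was 0.509 (0.464 to 0.545), in Pre_E 0.662, in Lat_E 0.492 and in Bir_G 0.465 (0.156 to 1.08, in 20 of 21 samples).

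**Figure D5:**
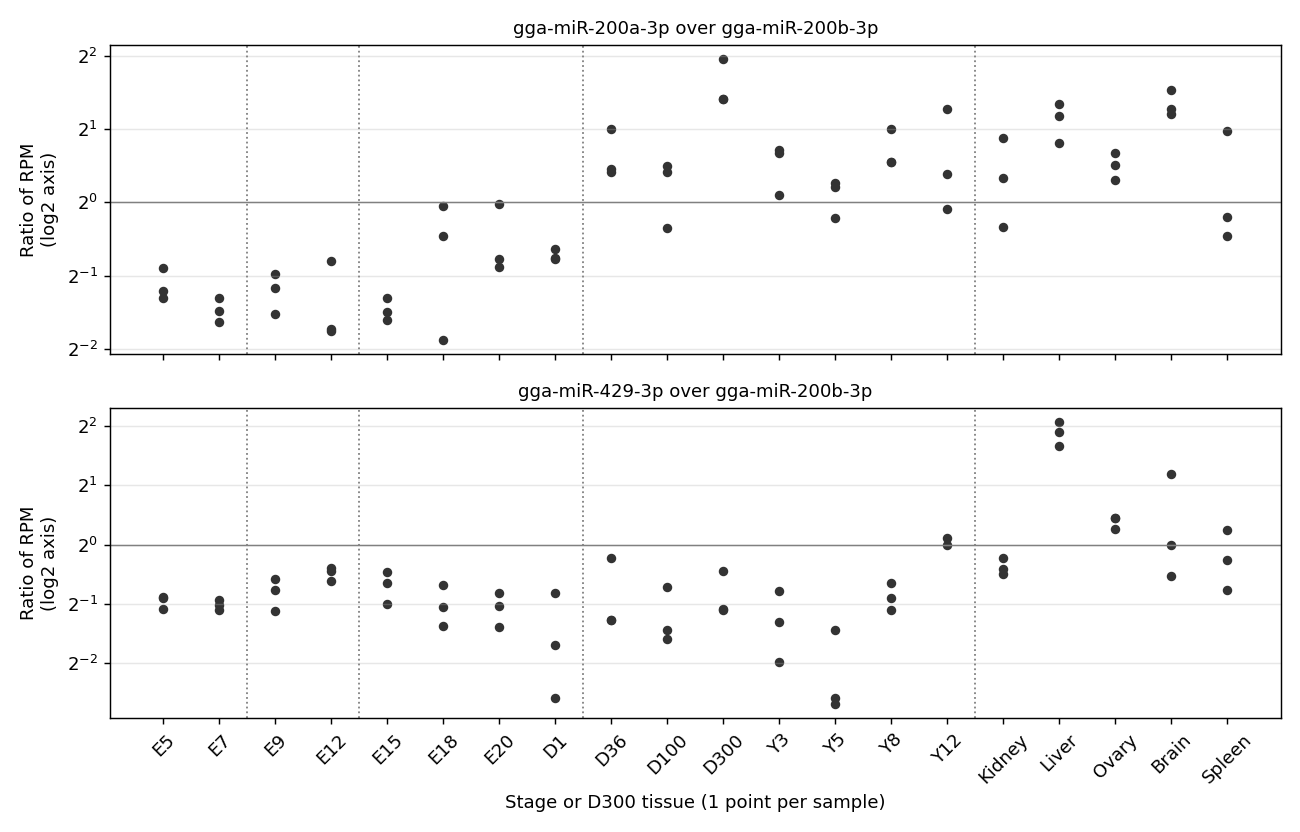
Ratio of miR-200a-3p to miR-200b-3p and of miR-429-3p to miR-200b-3p in RPM, 1 point per sample with at least 3 reads of both, over the stages and tissues, on a log2 axis. In whole embryos and Pre_E the first ratio stayed below 0.6, and the second reached 3.16 to 4.18 in liver.

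The arms of a hairpin were also in unlike proportion. For miR-200a the 3p arm exceeded the 5p arm by a median of 6.97 times in whole embryos (6.04 to 8.86) and 6.73 times in Pre_E (3.44 to 8.38), against 58.1 times in kidney (29.7 to 61.7), 36.1 times in liver (32.4 to 39.6) and 37.9 times in ovary. Embryonic samples did not overlap kidney or liver. For miR-200b the medians were 33.2 in whole embryos, 25.9 in Pre_E, 10.97 in Lat_E (10 of 12 samples), 48.6 in kidney, 39.9 in liver and 28.6 in ovary. For miR-429 they were 76.7 in whole embryos (64.1 to 84.4), 119 in Pre_E (4 of 6 samples), 493 in kidney, 261 in liver and 168 in ovary.

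The miRNAs whose pattern was most like that of the family were named by their Pearson correlation with the mean log2(RPM + 1) of the 3p arms, as a description. Over the 45 embryo and muscle samples, among 179 miRNAs of at least 10 RPM on average, these were miR-31-5p (0.952), miR-1677-5p (0.934) and miR-205a (0.932), and the 3p arms correlated with each other at 0.968 to 0.991. Over the 15 tissue samples, among 176 miRNAs, they were miR-460a-5p (0.982), miR-460a-3p (0.954) and miR-196-1-3p (0.751), and the 3p arms correlated at 0.962 to 0.981. The lists of nearest miRNAs of embryo and muscle and of the tissues thus had no name in common.

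The levels of miR-205a and miR-31-5p, which were among the nearest in embryo and muscle, were ordered differently from the family over the tissues. In kidney, miR-205a had 19.2 to 40.96 RPM, against 64.9 to 294 RPM in ovary and 204 to 525 RPM in D300 muscle, where the family was low. In liver it had 4.26 to 9.13 RPM. The epithelial miR-31-5p had 121.3 to 266 RPM in kidney, 2.26 to 5.22 RPM in liver and 1553 to 2324 RPM in ovary.

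Of the 11 listed epithelial miRNAs, 2 were called higher (miR-203a at 1.81 highest) and 7 lower (miR-375 at -2.81 lowest) in kidney against the other 4 tissues, where 25.0% of all miRNAs were called lower, with a median of -1.34. In liver against the other 4 tissues 1 was called higher, miR-375 at 7.05, and 8 lower (11.7% of all miRNAs called lower). In ovary 8 were called higher and none lower, with miR-449c-5p at 5.88 highest (8.38% of all miRNAs called higher). The summed epithelium list ran from 181 to 394 RPM in kidney, 1535 to 2480 RPM in liver, 2435 to 2899 RPM in ovary, 1492 to 2373 RPM in brain, 73.1 to 106 RPM in spleen and 229 to 550 RPM in D300 muscle. In kidney against D300 muscle, in contrast, 5 of the 10 list miRNAs tested were called higher and 2 lower, with a median of 1.05, among them miR-31-5p at 5.36 highest and miR-183 at -3.65 lowest (11.5% of all miRNAs called higher). The list's miR-34b-5p and miR-34c-5p had the same change, 1.85, and may share reads. The summed level of the list in D300 muscle was mostly miR-205a. Of the mesenchymal list in kidney against the other 4 tissues, 1 of 3 miRNAs was called lower, miR-214 at -1.05.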

How the data were processed

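Small RNA was sequenced in 60 samples. The authors trimmed adapters with Cutadapt, kept reads of 18 to 30 nt, removed other small RNAs by alignment (Bowtie in the submitters' processing notes, bowtie2 in the study's methods), and named the miRNAs from miRBase 21 after mapping to the chicken genome (tool versions are not given in the sources used here). The deposited values, called TPM by the authors, were treated as RPM. In the 56 libraries checked, every value was a whole multiple of a step (100% of values, tolerance of 0.1 read). Reads were recovered in 56 libraries. In the other 4 (E7-2, E9-3, D100-3 and Y8-2) the step was near 0.1 and no reads were taken, so edgeR and DESeq2 left them out. One unnamed column was not used.

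Log2(RPM + 1) was fitted with limma 3.58.1 in R 4.3.3 over all miRNAs listed above 0 in a compared sample. The stage polynomial was fitted to such miRNAs by ordinary least squares, not limma, with an F test and backward elimination of terms. The study's methods gave the periods and thresholds. Alternatives were edgeR 4.0.16 and DESeq2 1.42.0 on recovered reads, another pseudocount, a minimum mean, centring, rescaling, the replicate block, stage means as units, single tissues as the other side, and samples left out. The fits were tested on simulated data. All members were named, with the 3 most correlated miRNAs of each table (mean of at least 10 RPM) and, of each counted list, the lowest and highest. Other named miRNAs were chosen after their values were seen. Members, gene lists and tests were chosen with earlier results of these data known. Hairpins were matched to the RefSeq table of GRCg7b. Member sequences were not used here.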

Additional observations from a re-analysis of the deposited data

How the results depend on the processing

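The number of members called moved by 1.5 times or less, other than in the settings named here. With E9 left out, 2 were called in Lat_E against Pre_E. Over all alternatives of the members' log2 fold changes (1011 values), 907 kept direction and side of the threshold, 39 lost and 33 gained a call, and 32 turned sign, all of them for members that were not called. These values do not include the comparisons of a tissue with a single other tissue. There the members called higher in liver against the other 4 tissues turned against kidney alone, where miR-200a-3p was -2.51, miR-200a-5p -2.02, miR-429-3p -1.08 and miR-429-5p -0.03, and miR-200b-3p was -3.32. In Pre_E against whole embryo, where 1 member was called, 2 were called with a pseudocount of 0.1, with a mean of at least 1 RPM and when rescaled without miR-133a-3p, 3 when centred on the median miRNA, 5 with E9 left out (chosen after seeing the data), and 0 by edgeR and by DESeq2. In brain against D300 muscle the 2 calls became 1 by adjusted p, edgeR or DESeq2, 0 when centred or rescaled, and 0 to 3 when a replicate number was left out. In liver against the other 4 tissues the 5 calls became 3 against ovary alone, 4 in the other direction (lower) against kidney alone, and 3 to 5 with a replicate number left out. In ovary against the other 4 tissues, where 0 were called, 1 was with a pseudocount of 0.1, 2 by edgeR and by DESeq2, 0 to 2 with a replicate number left out, 3 (lower) against liver alone, 5 (lower) against kidney alone and 5 (higher) against brain or spleen alone. Of the 6 called lower in brain and in spleen, 1 was called between these tissues. With stage means in place of samples 4, 3 and 6 members were called in the period comparisons. Most member counts here stand without the share called over all miRNAs in their setting. So do those for limma fits above without a replicate number or with stage means, and those for the replicate block below. Counts over all miRNAs are given below where they moved by over 1.5 times. In the time course 3 of 6 passed with the logarithm of days. The cause of these differences was not tested.

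Signs turned as follows. In E7 against E5, miR-200a-3p was -0.20 and miR-429-5p -0.17 when centred, and on rescaling the members were -0.49 (miR-200a-3p), -0.24 (miR-200a-5p), -0.16 (miR-200b-3p), -0.17 (miR-200b-5p), -0.22 (miR-429-3p) and -0.38 (miR-429-5p). By edgeR miR-200a-3p was -0.30, miR-200a-5p -0.019, miR-429-3p -0.0074 and miR-429-5p -0.25, and by DESeq2 miR-200a-3p was -0.25 and miR-429-5p -0.20. With a replicate number left out they ran from -0.043 to 0.33 (miR-200a-3p) and from -0.013 to 0.25 (miR-429-5p). Centring gave -0.45 for miR-200b-5p and -0.57 for miR-429-5p in brain against D300 muscle, and -0.33 for miR-200a-5p and -0.38 for miR-200b-5p in spleen against D300 muscle. In that spleen comparison, with a replicate number left out, miR-200a-3p ran from -1.08 to 0.45, miR-200a-5p from -0.30 to 0.64, miR-200b-3p from -0.19 to 1.52 and miR-200b-5p from -0.039 to 0.36. In ovary against the other 4 tissues miR-200a-5p was 0.61 with a pseudocount of 0.1, 0.22 by edgeR and 0.072 by DESeq2 and ran from -0.38 to 0.26 with a replicate number left out, miR-200b-5p ran from -0.069 to 0.57, and miR-429-5p was -0.26 when centred and ran from -0.017 to 0.083. The log2 ratio of the miR-200a arms in Lat_E was 2.89 without replicate 3.

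Over all miRNAs, counts of calls moved by over 1.5 times in these settings. In Lat_E against Pre_E a pseudocount of 0.1 gave 281 (155 reported). In Bir_G against Lat_E it gave 336, edgeR 493 and DESeq2 333 (203 reported), in Bir_G against Pre_E 446 and edgeR 557 (285 reported), and in Pre_E against whole embryo 210, edgeR 219 and DESeq2 187 (120 reported). Against the other 4 tissues the pseudocount gave 230 in liver (152 reported), 169 in ovary (90 reported, edgeR 152) and 322 in brain (202 reported, edgeR 334), and kidney had 106 when centred and 120 by DESeq2 (190 reported). Against a single tissue ovary had 161 (liver), 204 (brain) and 151 (kidney), and spleen 220 against brain (139 reported against the other 4).

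Samples of one replicate number did not, as a rule, deviate together (31 of 87 same-numbered pairs correlated above 0.1, median 0.0481, highest 0.782), and the reported fits used no pairing. Only in 1 of the 29 pairs of groups, Y5 with Y3, was every correlation above 0.1. Between E7 and E9, E9 and E12, and E12 and E15, replicates 1 and 2 correlated at 0.452 to 0.782, and replicate 3 at -0.309 to 0.00398. This check cannot tell whether samples of one number share a bird or their handling. With the replicate block the number of members called was 6, 4 and 6 in the period comparisons and 6 in the time course, and differed from the reported one only in brain against D300 muscle, with 3 against 2. Depth limits the 5p arms, which were mostly under 3 reads in Bir_G.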
